A study of Homo sapiens with 6 samples.

Results

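P4HA1, P4HA2 and PLOD2 encode hydroxylases that modify collagen chains. Each was named in the authors' deposited comparison of HCT116 cells depleted of ERRα with control cells. They were chosen because probe sets carrying their names had passed that comparison, all as lower. The 3 genes have 11 named probe sets, and the unbroken runs of consecutive probe set identifiers around these hold 58 of the 257430 probe sets of the value table: 16 around P4HA1, 20 around P4HA2 and 22 around PLOD2. Whether the unnamed probe sets of a run measure the same gene is unknown, and the names come from the same difference that is described here, so the values of all 58 are given as a description, without a test.

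Collagen prolyl 4-hydroxylase converts proline to 4-hydroxyproline in the endoplasmic reticulum, which the collagen triple helix needs to be stable at body temperature. It is a tetramer of catalytic alpha subunits, encoded by P4HA1, P4HA2 or P4HA3, and of beta subunits, the protein disulphide isomerase encoded by P4HB. PLOD2 encodes lysyl hydroxylase LH2, which hydroxylates lysines in collagen telopeptides and so sets which cross-links form between collagen molecules. These enzymes use iron, oxygen, 2-oxoglutarate and ascorbate, and all 3 genes are known targets of the hypoxia-inducible factors.

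Both groups were cells of the human colon carcinoma line HCT116, grown in DMEM without phenol red with 10% serum. The depleted cells carried a lentiviral shRNA against ERRα (shERRalpha, 3 arrays) and the control cells a scrambled one (shscrambled, 3 arrays). Each group was infected for 48 h and then kept in puromycin for 48 h, at 2 mg/ml as the labels give it. The labels name no further shRNA against ERRα, so loss of ERRα and other effects of this hairpin cannot be told apart. The replicates are labelled as biological, and whether they came from separate infections is not stated. The receptor ERRα is the product of ESRRA and is best known as a regulator of mitochondrial energy metabolism.

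The arrays had median levels of 4.255 to 4.436 log2 units, and their number limits the precision of every value. The shRNA's target, ESRRA, averaged 2.38 ± 0.20 log2 units in shERRalpha cells and 5.08 ± 0.21 in shscrambled cells (SD, n = 3 each, median of 2 named probe sets selected by this same difference). The shERRalpha level is near background by the mark used below, and the run of 6 probe sets around ESRRA changed by -1.84 log2 units. One array stood apart: shERRalpha replicate 1 correlated across probe sets with the other arrays at 0.862 to 0.872, against 0.932 to 0.946 among those. On it, 3077 probe sets (1.20%) lay more than 3 log2 units below the lowest of the other 5 arrays, against 16 to 59 probe sets on each of the others. The changes of the 3 runs are therefore given with and without shERRalpha replicate 1. Run changes of other genes use all 6 arrays unless stated otherwise. Over all 257398 probe sets used, limma called 0 at an adjusted p of 0.05, in either direction, with 11581 lower (4.50%) and 6927 higher at an unadjusted p under 0.05, 7.19% in either direction, and an equal-variance test with Benjamini-Hochberg adjustment also called 0. Names are paired only with listed probe sets, so the cells could not be checked against markers in general: of 7 colon epithelial markers only CDH1, which encodes E-cadherin, was listed, as lower at 7 probe sets, with medians of 5.63 ± 0.55 log2 units in shERRalpha cells and 7.69 ± 0.03 in shscrambled cells (SD, n = 3 each).

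The 250 bases before each gene's start, from RefSeq (GRCh38.p14), are shown because the 3 genes were listed in the same direction and are known hypoxia targets. All 3 genes lie on the minus strand, and the windows are chr10:73096867-73097116 for P4HA1, chr3:146161185-146161434 for PLOD2 and chr5:132227092-132227341 for P4HA2. Capitals mark the form ACGTG of the core of the hypoxia response element, or CACGT where it lies on the opposite strand. No other form of the core was searched.
P4HA1: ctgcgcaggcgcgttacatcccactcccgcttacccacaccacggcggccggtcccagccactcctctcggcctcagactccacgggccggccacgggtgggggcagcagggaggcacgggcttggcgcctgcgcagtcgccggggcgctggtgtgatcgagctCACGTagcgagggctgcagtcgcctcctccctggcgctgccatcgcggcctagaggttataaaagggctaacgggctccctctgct
PLOD2: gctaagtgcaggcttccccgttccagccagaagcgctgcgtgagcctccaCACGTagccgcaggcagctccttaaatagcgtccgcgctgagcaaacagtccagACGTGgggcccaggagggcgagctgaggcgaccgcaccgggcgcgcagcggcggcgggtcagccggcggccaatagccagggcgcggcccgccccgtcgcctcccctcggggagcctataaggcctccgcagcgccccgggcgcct
P4HA2: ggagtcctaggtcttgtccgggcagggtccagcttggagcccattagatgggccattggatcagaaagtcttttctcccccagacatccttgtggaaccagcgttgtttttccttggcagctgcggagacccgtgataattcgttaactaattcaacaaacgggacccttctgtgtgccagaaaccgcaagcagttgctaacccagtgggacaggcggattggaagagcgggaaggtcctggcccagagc
The P4HA1 window held this form once, at -86 to -82 from the start. The PLOD2 window held it at -200 to -196 and at -146 to -142, while the letters were not in the P4HA2 window. This form was found in 18.5% of the 35116 windows of this length. The half-site bound by ERR receptors, searched as AAGGTCA and TGACCTT on either strand and found in 3.44% of all windows, was in none of the 3. A match is a stretch of letters and was not tested as a binding site.

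P4HA1, which encodes the main catalytic alpha subunit, was lower in shERRalpha cells along its whole run. The median over the 16 probe sets was 5.68, 6.85 and 6.66 log2 units in shERRalpha replicates 1, 2 and 3, against 7.78, 7.51 and 7.73 in shscrambled replicates 1, 2 and 3. The groups did not overlap, and shERRalpha replicate 1 was the lowest array. This is a change of -1.28 log2 units (limma SE 0.31), or 2.42-fold lower, and -0.92 without shERRalpha replicate 1. All 16 probe sets were lower on average, and in 14 of them every shERRalpha array lay below every shscrambled array, which held for 8.39% of all probe sets. Of the 16, 13 were at least 2-fold lower, against 7.10% of all probe sets, and without shERRalpha replicate 1 the number was again 13, against 5.33%. The 7 probe sets listed by the authors are in each of these counts, and they were selected in part for a 2-fold difference. Of the 9 unlisted probe sets, 7 had every shERRalpha array below every shscrambled array and 6 were at least 2-fold lower.

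The authors' deposited table lists 7 P4HA1 probe sets. Their median was 5.98, 7.04 and 6.88 log2 units in shERRalpha replicates 1 to 3, against 8.28, 8.00 and 8.35 in shscrambled replicates 1 to 3, 2.99-fold lower, and 2.38-fold without shERRalpha replicate 1. Probe set 7934280 was at 7.41, 7.66 and 7.26 log2 units in shERRalpha cells, against 8.94, 8.76 and 9.04 in shscrambled cells. Its 3 shERRalpha arrays lay close together, and shERRalpha replicate 1 was not the lowest. Probe set 7934285 was at 5.98, 7.04 and 6.88 log2 units in shERRalpha cells, against 8.28, 8.13 and 8.35 in shscrambled cells, with shERRalpha replicate 1 about 1 log2 unit below the other two. The smallest listed difference was that of 7934290, at 5.73, 5.46 and 5.20 log2 units in shERRalpha cells, against 6.36, 6.50 and 6.90 in shscrambled cells, and there shERRalpha replicate 1 was the highest of its group.

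The 9 unlisted probe sets of the P4HA1 run had log2 changes of -2.64 to -0.72, with a median of -1.63 and of -1.11 without shERRalpha replicate 1. Of these 9, 6 were at least 2-fold lower and missed only the p-value part of the listing rule. Probe set 7934284 was at 5.64, 7.46 and 7.36 log2 units in shERRalpha cells, against 8.89, 8.67 and 8.96 in shscrambled cells. Probe set 7934286 was at 2.72, 5.96 and 6.16 log2 units in shERRalpha cells, against 7.27, 7.30 and 6.86 in shscrambled cells. In both, the groups did not overlap and shERRalpha replicate 1 lay far below the other two, in 7934286 by more than 3 log2 units. The largest change of the run, -2.64, was at 7934294, and it was -1.68 without shERRalpha replicate 1. That probe set was at 0.48, 3.26 and 3.46 log2 units in shERRalpha cells, against 4.98, 4.17 and 5.99 in shscrambled cells. Its shERRalpha mean of 2.40 was near background by the mark used below. The only overlapping probe sets were 7934292 and 7934293, with changes of -0.94 and -0.72 log2 units, which stand next to each other near the end of the run.

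**Figure D1:**
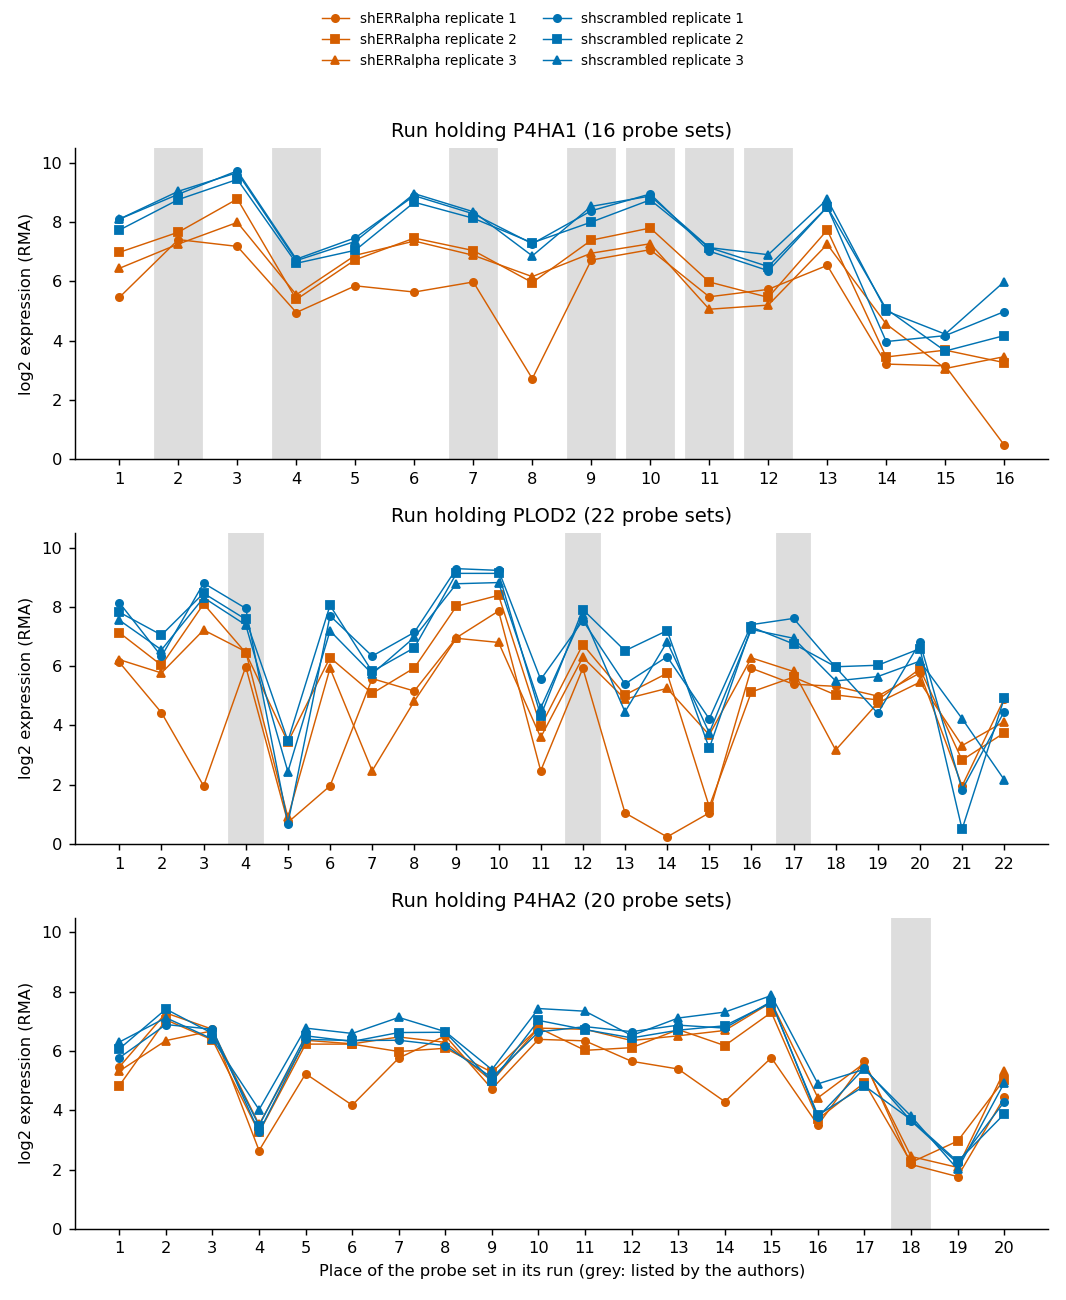
Log2 expression of each probe set (y axis, RMA values) by its place in the run (x axis) for the runs that hold P4HA1, PLOD2 and P4HA2; each line is 1 array, orange for shERRalpha and blue for shscrambled, and grey bands mark the probe sets listed by the authors. The orange lines run below the blue ones along most of the P4HA1 and PLOD2 runs. In the P4HA2 run the groups overlap at 14 of 20 probe sets. They are separate at 6, among them place 1 and the 1 listed probe set at place 18. At many places of that run shERRalpha replicate 1 is the lowest of its group.

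PLOD2, the telopeptide lysyl hydroxylase, was lower in shERRalpha cells by about the same amount as P4HA1, and its run median moved less when shERRalpha replicate 1 was left out. The median over its 22 probe sets was 5.08, 5.70 and 5.36 log2 units in shERRalpha replicates 1 to 3, against 6.57, 6.68 and 6.68 in shscrambled replicates 1 to 3. The groups did not overlap, and the 3 shscrambled arrays lay close together. The change was -1.27 log2 units (limma SE 0.23), or 2.41-fold lower, and -1.12 without shERRalpha replicate 1. Of the 22 probe sets, 20 were lower on average, and 16 had every shERRalpha array below every shscrambled array, against 8.39% of all probe sets. At least 2-fold lower were 17, against 7.10% of all probe sets, and 14 without shERRalpha replicate 1, against 5.33%. The 3 listed probe sets, selected in part for a 2-fold difference, are in each of these counts. Of the 19 unlisted probe sets, 14 were at least 2-fold lower, and 11 without shERRalpha replicate 1.

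The authors' deposited table lists 3 PLOD2 probe sets. Probe set 8091287 was at 5.98, 6.45 and 6.49 log2 units in shERRalpha cells, against 7.95, 7.58 and 7.39 in shscrambled cells. Probe set 8091295 was at 5.93, 6.73 and 6.30 log2 units in shERRalpha cells, against 7.54, 7.91 and 7.73 in shscrambled cells. Probe set 8091300 was at 5.39, 5.63 and 5.82 log2 units in shERRalpha cells, against 7.61, 6.75 and 6.94 in shscrambled cells. In each the groups were separate, shERRalpha replicate 1 was the lowest array, and the fold was 2.52, 2.65 and 2.80 lower in that order.

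The 19 unlisted probe sets of the PLOD2 run had a median log2 change of -1.48, and of -1.17 without shERRalpha replicate 1, and 13 of them had every shERRalpha array below every shscrambled array, against 8.39% of all probe sets. Probe set 8091292 was at 6.96, 8.02 and 6.94 log2 units in shERRalpha cells, against 9.29, 9.13 and 8.78 in shscrambled cells, 3.38-fold lower. The 3 largest differences of the run rested in part on shERRalpha replicate 1. Probe set 8091297 was at 0.24, 5.76 and 5.25 log2 units in shERRalpha cells, against 6.32, 7.20 and 6.82 in shscrambled cells. It changed by -3.03 log2 units with shERRalpha replicate 1 but by -1.27 without that array. The same held for 8091289 (-2.92 and -1.54) and 8091286 (-2.76 and -0.86). Another probe set with such a low value on this array, 8091296 at 1.05 log2 units, could not be read from its own digits alone, and the low reading was taken because the same digits stood at 6290 probe sets of that array. Low values were not confined to that array. In shERRalpha cells 8091290 was at 5.58, 5.08 and 2.47 log2 units and 8091301 at 5.32, 5.03 and 3.17, with replicate 3 the lowest. These 2 changed by -1.59 and -1.30 log2 units, and by -2.19 and -1.71 without shERRalpha replicate 1. The 2 probe sets that were higher, 8091304 and 8091305, lie at the end of the run, with changes of 0.52 and 0.41 log2 units and overlapping groups. In shscrambled cells 8091304 was at 1.83, 0.50 and 4.23 log2 units, a mean near background, and 8091305 was at 4.47, 4.91 and 2.17. Without shERRalpha replicate 1 their changes were 0.89 and 0.09.

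P4HA2, which encodes the second catalytic alpha subunit, differed from P4HA1 and PLOD2 in how far the difference extended along its run. Its median over 20 probe sets was 5.42, 6.06 and 6.32 log2 units in shERRalpha replicates 1 to 3, against 6.36, 6.48 and 6.56 in shscrambled replicates 1 to 3. The change was -0.53 log2 units (limma SE 0.26), or 1.45-fold lower, but -0.28 without shERRalpha replicate 1. shERRalpha replicates 2 and 3 lay close to the shscrambled arrays, just below them. Of the 20 probe sets, 16 were lower on average, against 50.4% of all probe sets, and 6 had every shERRalpha array below every shscrambled array, against 8.39%. At least 2-fold lower were 2 of the 20 (10%), near the 7.10% of all probe sets, and without shERRalpha replicate 1 it was 1 of the 20, near the 5.33% of all probe sets in that setting.

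The probe set that was 2-fold lower in both settings is the only listed one of P4HA2, 8113999, at 2.17, 2.24 and 2.44 log2 units in shERRalpha cells, against 3.64, 3.68 and 3.80 in shscrambled cells. Both groups were tight, and in the authors' deposited table it has the smallest p-value of the 11 (0.000113, fold of shERRalpha over shscrambled 0.374). Its shERRalpha level was below 2.42 log2 units, the 25th percentile of all probe set means and used here as the mark for signal near background, so its fold is only approximate. Its neighbour 8113998 was at 5.65, 4.93 and 5.59 log2 units in shERRalpha cells, against 5.42, 4.82 and 5.38 in shscrambled cells, and 8114000 was at 1.76, 2.96 and 2.07 in shERRalpha cells, against 2.21, 2.27 and 2.01 in shscrambled cells. The groups overlapped in both, and 8114000 was near background in both groups, which limits what its values can show. The other probe set past 2-fold, 8113995, was at 4.29, 6.18 and 6.69 log2 units in shERRalpha cells, against 6.77, 6.85 and 7.31 in shscrambled cells, and changed by -1.25 with shERRalpha replicate 1 and -0.54 without it. Apart from 8113999, the largest decrease without that array was at 8113982, the first of the run (-0.97 log2 units), which was at 5.46, 4.83 and 5.32 log2 units in shERRalpha cells, against 5.77, 6.07 and 6.30 in shscrambled cells.

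**Figure D2:**
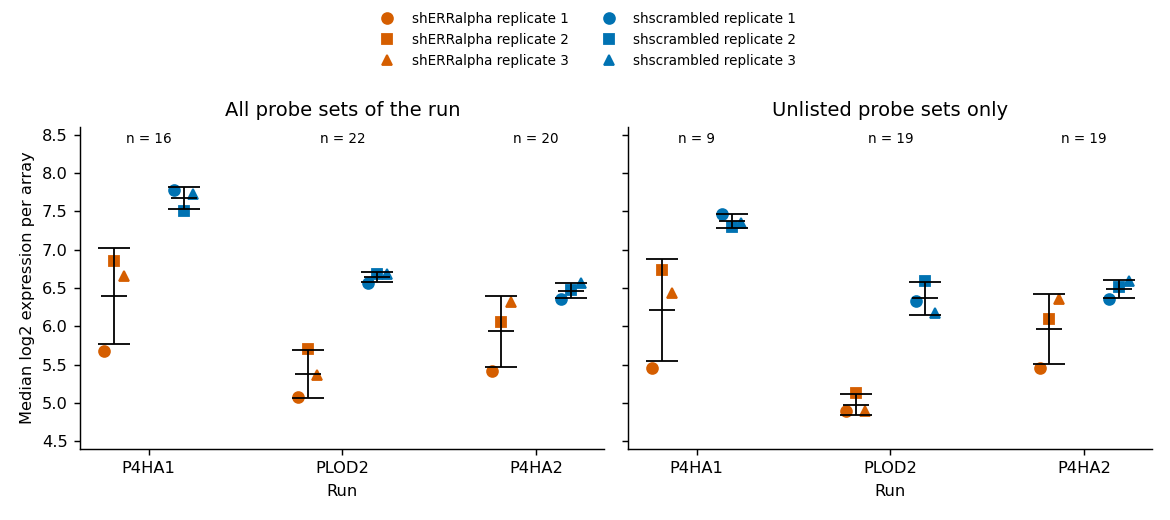
Median log2 expression per array (y axis) over all probe sets of each run (left) and over its unlisted probe sets (right) for P4HA1, PLOD2 and P4HA2 (x axis); points are single arrays, shERRalpha in orange and shscrambled in blue, and black marks give the mean and SD of the 3 arrays. In both panels every shERRalpha point lies below every shscrambled point of its run, and for P4HA2 shERRalpha replicates 2 and 3 come close to the shscrambled arrays.

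Among 19185 runs of at least 3 probe sets, ordered from the lowest change of the run median, P4HA1 stood at place 100, PLOD2 at place 105 and P4HA2 at place 1918. A change of -1 log2 unit or less was found in 1.62% of these runs. In 10.6% of them every shERRalpha array lay below every shscrambled array, a share that includes the P4HA2 run. The median change over all runs was near 0 (-0.0028 log2 units). limma called 0 runs at an adjusted p of 0.05, with 1420 lower and 630 higher at an unadjusted p under 0.05. These places describe the runs and are no evidence beyond the listing, since the genes were chosen for being lower on the same arrays.

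The number of listed probe sets varied with the arrays used. The listing rule (equal-variance test across all probe sets, unadjusted p below 0.01, difference of 2-fold or more) called 11 of the 58 probe sets, all lower, a count that the choice of members fixes. Of all probe sets it called 0.554% as lower and 0.270% as higher, 0.824% in all. Without shERRalpha replicate 1 it called 6, without shERRalpha replicate 3 also 6, and without shscrambled replicates 1, 2 and 3 it called 3, 3 and 2, while without shERRalpha replicate 2 it called 13. P4HA2 kept its 1 call in each of these settings, whereas PLOD2 had 0 calls without shERRalpha replicate 1, shscrambled replicate 2 or shscrambled replicate 3. In those 3 settings the change of the listed PLOD2 probe sets was -1.15, -1.27 and -1.37 log2 units, against -1.30 with all arrays. There the rule called 1208, 775 and 1038 of all probe sets as lower, against 1427 with all arrays. Without shERRalpha replicate 2, shERRalpha replicate 3 and shscrambled replicate 1 the rule called 1719, 1444 and 909 of all probe sets as lower. Leaving out an array also leaves the test fewer residual degrees of freedom. Nearest to the p-value threshold on its inner side stood 7934285 of P4HA1, 3.08-fold lower, and on its outer side 8091292, 8091299 and 8091291 of PLOD2, at 3.38-, 2.90- and 3.03-fold lower. The listed probe set with the smallest difference was 7934290 of P4HA1, 2.18-fold lower.

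**Figure D3:**
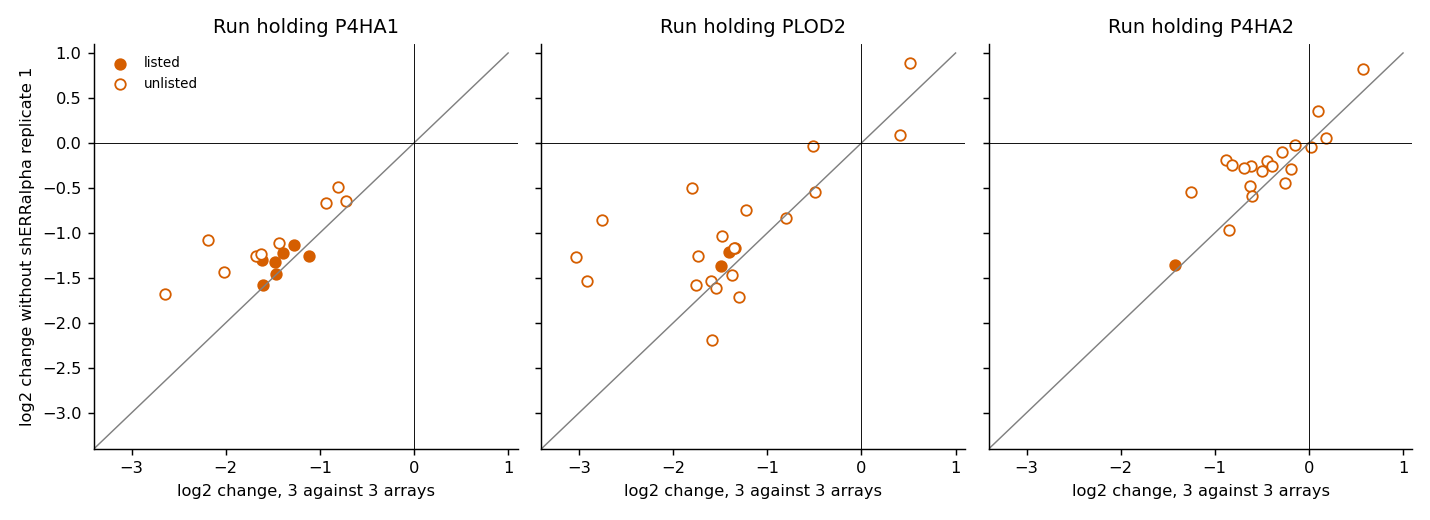
Log2 change of each probe set, shERRalpha minus shscrambled, with all 6 arrays (x axis) and without shERRalpha replicate 1 (y axis) for the 3 runs; filled points are listed and open points unlisted probe sets, and the grey line marks equal values. Points above the line had a higher value when that array was left out; 13 of 16 P4HA1 points, 14 of 22 PLOD2 points and 1 of 20 P4HA2 points are at least 2-fold lower on the y axis.

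Of 31 genes for collagen maturation, 7 were listed, 6 lower and 1 higher, where 929 of all 1458 listed genes were lower and 500 higher. For this list and those below, 0.824% of all probe sets were listed, and the share of all measured genes is not known. P4HA1, P4HA2 and PLOD2 make up 3 of the 6 lower genes. The others rested on 1 probe set each. PCOLCE2, a glycoprotein that enhances removal of the procollagen C-propeptide, was at 3.95, 3.94 and 4.02 log2 units in shERRalpha cells, against 6.15, 5.44 and 5.56 in shscrambled cells. It was 3.36-fold lower, all 10 other probe sets of its run were lower too, and the run median changed by -0.87. FKBP10, a collagen chaperone known to act with LH2, was 2.55-fold lower at its listed probe set (2.96 ± 0.20 log2 units in shERRalpha cells and 4.31 ± 0.33 in shscrambled cells, SD, n = 3 each), with a run change of -0.17 and near 0 without shERRalpha replicate 1. P3H4, a relative of the prolyl 3-hydroxylases, was 2.18-fold lower at its listed probe set with a run change of -0.34. ADAMTS14, a procollagen N-proteinase, was 2.69-fold higher at its listed probe set, with a run change of 0.08 and of -0.05 without shERRalpha replicate 1. The beta subunit gene P4HB, the third alpha subunit gene P4HA3 and the other lysyl hydroxylase genes PLOD1 and PLOD3 were not listed, and without names for unlisted probe sets their levels are not given here.

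Of 44 collagen chain genes, which encode the substrates of these enzymes, 14 were listed, 8 lower, 4 higher and 2 with probe sets in both directions, COL4A6 and COL7A1. That split is close to the one among all listed genes, 929 lower and 500 higher. Of all probe sets 0.824% were listed, and the runs of these 14 genes were long, at 31 to 114 probe sets. Most of the 14 were listed by 1 probe set, so the count of 14 is not read as a result about collagen chains. COL6A1, a chain of the microfibrillar collagen VI, was 2.48-fold lower at 2 probe sets, at 6.27, 6.22 and 6.42 log2 units in shERRalpha cells, against 7.62, 7.82 and 7.39 in shscrambled cells. Its run changed by -0.59, the largest decrease of a run median among the 14. COL17A1, COL6A3, COL11A2, COL1A2 and COL4A4 were listed lower by 1 probe set each, with run changes between -0.32 and 0.13. Of these, all but COL11A2 had shERRalpha levels near background at the listed probe set. COL3A1 and COL15A1 were listed higher by 1 probe set each, with run changes of 0.20 and 0.56. Among those named, the run changes of COL3A1, COL11A2 and COL6A3 had the opposite sign without shERRalpha replicate 1.

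Genes that supply the cosubstrate and cofactors of the hydroxylases were listed for 5 of 17, all lower. Among all genes listed in a single direction, 65% were lower, and the share of all measured genes that were listed is not known, since unlisted probe sets carry no names. GOT1, the cytosolic aspartate aminotransferase, for which 2-oxoglutarate is a substrate, was 2.39-fold lower at 3 probe sets, at 8.27, 8.21 and 7.71 log2 units in shERRalpha cells, against 9.09, 9.15 and 9.73 in shscrambled cells. All 8 other probe sets of its run were lower, and the run median changed by -1.43, or by -1.29 without shERRalpha replicate 1. IDH1, the cytosolic enzyme that makes 2-oxoglutarate from isocitrate, was at 8.44, 8.54 and 8.37 log2 units in shERRalpha cells, against 9.51, 9.62 and 9.39 in shscrambled cells. It was 2.08-fold lower at 1 listed probe set, and 11 of the 12 others were lower. The run changed by -1.39, or by -1.06 without shERRalpha replicate 1. The ascorbate transporter gene SLC23A2 was at 2.47, 4.18 and 3.23 log2 units in shERRalpha cells, against 5.64, 5.84 and 5.62 in shscrambled cells. Of its 21 other probe sets 13 were lower, not far from the 50.4% of all probe sets, and its run changed by -0.85. SLC11A2, which encodes an iron transporter, and the alanine aminotransferase gene GPT2 were listed lower by 1 probe set each, with run changes of -0.85 and -0.61, the SLC11A2 probe set being near background in shERRalpha cells.

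Among 9 folding partners of the endoplasmic reticulum, ERO1A, which reoxidises protein disulphide isomerase, was listed lower at 1 probe set. It was at 6.93, 7.70 and 7.24 log2 units in shERRalpha cells, against 8.88, 8.75 and 8.48 in shscrambled cells, 2.66-fold lower. Of its 15 other probe sets, 14 were lower, and the run changed by -1.04, or by -0.63 without shERRalpha replicate 1. Of 39 other oxygenases that use 2-oxoglutarate, 3 were listed by 1 probe set each: PHYH, the peroxisomal phytanoyl-CoA hydroxylase, and PHF2, a histone demethylase, were lower, and TET3, which oxidises 5-methylcytosine, was higher. Their runs changed by -0.41, -0.11 and 0.23. The oxygen-sensing prolyl hydroxylase genes EGLN1, EGLN2 and EGLN3, which belong to that list, were not listed.

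Of 22 hypoxia regulators and targets, EPAS1 and ANKRD37 were listed, both lower. EPAS1, which encodes HIF-2α, was at 5.97, 6.24 and 5.61 log2 units in shERRalpha cells, against 7.53, 7.52 and 7.44 in shscrambled cells over 8 probe sets, and its run changed by -1.15, or by -1.17 without shERRalpha replicate 1. ANKRD37, known as a hypoxia target, was 3.37-fold lower at 1 probe set, and 3 of the 5 other probe sets of its run were lower, against 50.4% of all probe sets. The hypoxia targets VEGFA, CA9, PGK1 and LDHA were among those not listed.

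**Figure D4:**
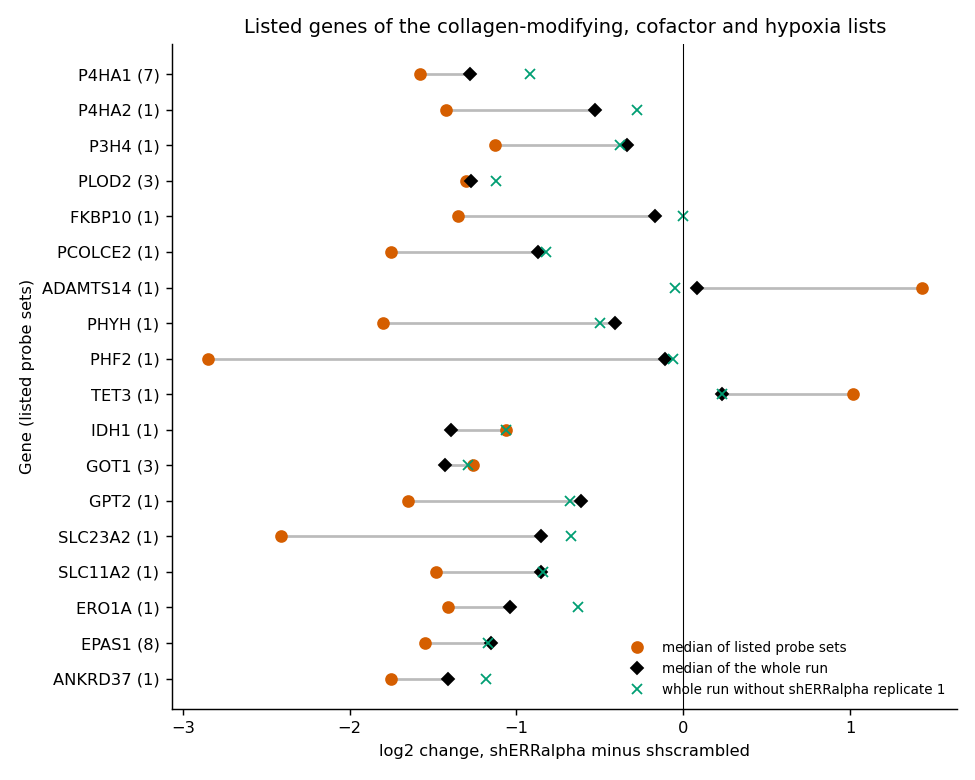
Log2 change, shERRalpha minus shscrambled (x axis), for the listed genes of the collagen maturation, cofactor, folding, oxygenase and hypoxia lists (y axis, number of listed probe sets in brackets); orange points are the median of the listed probe sets, black diamonds the median of the whole run, and green crosses the run without shERRalpha replicate 1. For P4HA1, PLOD2, IDH1, GOT1, ERO1A, EPAS1 and ANKRD37 the run lies below -1. For others, among them P4HA2, FKBP10, ADAMTS14, PHYH, PHF2, GPT2 and SLC23A2, the run lies far from the listed value.

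The genes with the most similar pattern over the 6 arrays were sought among genes listed by 3 or more different probe sets, by Pearson's r of the median per array. For P4HA1 they were ASH2L (r = 0.999), PCGF5 (0.995) and LAMA3 (0.987), out of 119 candidates with a median r of 0.880. ASH2L was at 7.04, 7.87 and 7.70 log2 units in shERRalpha cells, against 8.96, 8.74 and 8.99 in shscrambled cells, which follows the order of the P4HA1 arrays. For PLOD2 they were BMPR1A, ATP6V1C2 and LIMCH1 (0.994 each, 119 candidates with a median r of 0.949), and for the single P4HA2 probe set MDN1 (0.997), NOTCH2 (0.996) and WASHC5 (0.995), out of 120 candidates with a median r of 0.939. The r was 0.965 between P4HA1 and PLOD2, 0.965 between P4HA2 and PLOD2 and 0.936 between P4HA1 and P4HA2, close to these medians for PLOD2 and P4HA2. All these genes were listed for a difference between the same 2 groups of arrays, which alone gives a high r, and the values are a description only.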

How the data were processed

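RNA of 6 arrays (Affymetrix whole-transcript labelling, per the labels' protocols) was compared, grouped by sample titles. The deposited score columns hold log2 values per probe set that the authors made with RMA, per the submitters' processing notes; annotation and genome build: not given in the sources used here. Decimal marks were lost on deposition. Strings of 7 digits were read as 10 or more and others with 1 digit before the mark, unless a shorter string starting with 1 could also be 10 or more without passing 13.24621, the highest 7-digit value; 73522 values (4.76%) allowed both readings. Of these, 43719 whose digits recurred at least 100 times on an array were read as low (no 7-digit string recurred more than 13 times), and the rest took the reading nearer to the probe set's other values; 32 probe sets stayed undecided and were left out. The ceiling and the rule on recurring digits were chosen after seeing the data; without the recurrence rule 1250 probe sets were undecided. All 2122 deposited fold ratios and p-values of the authors' t-test, per the file headers, were recovered, within 0.001 log2 units and 1%.

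A run ends at a missing identifier and was summarised by its median per array. limma 3.58.1 (R 4.3.3; lmFit, eBayes, Benjamini-Hochberg) ran over all probe sets and over runs, and was tested on simulated data. Members and lists were chosen with earlier results of these data known. Named genes are P4HA1, P4HA2 and PLOD2, up to 10 listed members per list by smallest deposited p, and the 3 most similar genes for each. Named by RefSeq accession were 1948 listed probe sets, by symbol 103, by older symbol 27 and by the table's own name 11, with 33 unnamed. The lists of fibroblast and endothelial markers (3 of 11 listed: COL1A2 lower, COL3A1 and KDR higher) and leukocyte markers (1 of 5: ITGAM higher) each rest on single probe sets. Alternatives were leaving out each array, quantile normalisation, centring, a replicate block, filters on dim probe sets, other summaries, array weights, other tests and other decimal readings.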

Additional observations from a re-analysis of the deposited data

How the results depend on the processing

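The changes of the 3 runs and of their listed probe sets stayed below 0 in all 78 values under the alternatives run, and each moved by less than 1 SD between replicates, which says little about stability for members chosen as lower on these arrays. Leaving out each array gave run changes of -1.50 to -0.92 for P4HA1, -1.43 to -1.12 for PLOD2 and -0.72 to -0.28 for P4HA2. It gave 2 to 13 member probe sets and 775 to 1719 of all probe sets lower under the p and fold rule, against 11 and 1427 with all arrays; the number was 775 without shscrambled replicate 2 and 909 without shscrambled replicate 1. With a replicate block, which leaves fewer residual degrees of freedom, the rule gave 2 member probe sets, 0 of them in the P4HA1 run, and 675 in all. Same-numbered arrays of the 2 groups deviated together only weakly (r = 0.070, 0.049 and 0.084). Each array correlated best with its own number, and pairs of unlike number had r of -0.061 to -0.006. The negative average of the unlike pairs adds nothing, because deviations from a group mean sum to 0 within the group. The labels give no pairing beyond the number, and the main comparison did not use it. Whether same-numbered arrays were handled together was not tested. Above the median level the rule gave 855 in all, where fewer probe sets are tested, and it lost the P4HA2 probe set. With limma's p in the rule, 19 member probe sets and 2805 in all were lower; the cause was not tested. limma called 0 probe sets at an adjusted p of 0.05 in each of the 15 alternatives, array weights and the equal-variance test included, with 11844 to 22134 probe sets at an unadjusted p under 0.05. Reading decimal marks without the recurring digits was added after the data were seen and left the member count at 11. Levels near background limit the folds of the dim probe sets.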
